A study of Mus musculus with 6 samples.

Results

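The 10 genes described here encode receptors, transcription factors and surface or secreted proteins of endothelial cells: Pecam1, Cdh5, Kdr, Flt1, Tek, Tie1, Sox17, Sox18, Emcn and Egfl7. They were chosen by name, as the probes that carry one of these names in the scanner files. The choice was made with earlier results of these data known, so counts set beside shares of all genes are descriptions only. The array held 19 such probes among 41174, and 16 of them passed the filter, which asks that the scanner call a probe well above background on 3 or more of the 6 arrays. Every one of the 10 genes kept at least 1 probe, among 19194 measured genes or unnamed features, and the probe that stands for it was well above background on all 6 arrays. None of the 19 probes lies on chromosome 7, where the duplicated interval is.

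RNA came from epididymal white adipose tissue, the visceral fat beside the testis, of male mice aged 9 to 10 weeks on the C57BL/6 background. The 3 patDp/+ mice have a duplication of part of chromosome 7 on the chromosome inherited from the father, as a model of the human duplication syndrome named in the title of the series. They were set against 3 wild type mice of the same sex, age and background, with 1 single-colour array per animal. The labels give no litter for any animal, and the grouping follows the sample titles and genotypes.

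Endothelial cells line the vessels of fat. A pair of receptor systems steers them: VEGF acts through Kdr and Flt1, and the angiopoietins act through Tek with its partner Tie1. Sox17 and Sox18 belong to the SoxF group of transcription factors, which act in arterial and lymphatic endothelium during development. Adult fat is densely supplied with capillaries, whose endothelium also passes fatty acids to adipocytes.

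Each slide held 1 patDp/+ and 1 wild type array, with the same replicate number on both, and both arrays of a slide were scanned in 1 scan. Values are log2 intensities minus the 75th percentile of the array, so 0 is the level of that percentile. Levels of different genes are not comparable on this scale, since probes differ in brightness. The 75th percentile before scaling lay at an intensity of 966.3 to 1008 on patDp/+ arrays and of 886.4 to 1003 on wild type arrays. Between 63.34% and 71.58% of probes were well above background on patDp/+ arrays, against 66.4% to 68.71% on wild type arrays, with the lowest share on the array of patDp/+ replicate 3. The adipocyte genes Adipoq and Plin1 were measured on all arrays, and all 8 genes of the adipocyte list passed the filter.

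The sequences shown first are 2 probes and 2 promoters. The Sox17 probe is the second of the 2 kept probes of the member with the largest difference, so it gives a further reading of that gene. It lies at chr1:4481890-4481949 (mm9, minus strand) and is printed whole, with no letters marked.
Sox17 probe: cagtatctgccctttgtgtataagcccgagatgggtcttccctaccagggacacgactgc
The Pecam1 probe shown is the one that represents the gene. It has 60 bases but spans chr11:106542389-106544242 (mm9, minus strand), a stretch of 1854 bases, so its genomic match is split.
Pecam1 probe: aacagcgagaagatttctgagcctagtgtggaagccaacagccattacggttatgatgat
Promoters are given for Emcn and Egfl7, the pair of members whose profiles over the arrays were most alike. They come from RefSeq on GRCm38.p6, run from 250 bases before to 50 bases after the start, and were matched by symbol, which gave 6 of the 10 genes: Kdr, Flt1, Tek, Tie1, Emcn and Egfl7. Capitals mark AGGAAG, a form of the core bound by ETS factors, and AACAAT, a form of the core bound by SOX factors, each searched on both strands as AGGAAG or CTTCCT and as AACAAT or ATTGTT. Neither motif overlaps the other in the promoters shown. The Emcn promoter lies at chr3:137340828-137341127 (plus strand).
Emcn promoter: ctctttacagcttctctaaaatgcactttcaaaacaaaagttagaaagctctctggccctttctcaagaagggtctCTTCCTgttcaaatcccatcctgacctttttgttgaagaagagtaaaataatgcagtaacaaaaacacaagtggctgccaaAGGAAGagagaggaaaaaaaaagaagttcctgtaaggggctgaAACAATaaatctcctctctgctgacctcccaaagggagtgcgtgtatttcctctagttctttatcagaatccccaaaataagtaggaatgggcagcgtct
The Egfl7 promoter at chr2:26580833-26581132 (plus strand) is the one with the most AGGAAG matches among the 3 starts that the table gives for that gene.
Egfl7 promoter: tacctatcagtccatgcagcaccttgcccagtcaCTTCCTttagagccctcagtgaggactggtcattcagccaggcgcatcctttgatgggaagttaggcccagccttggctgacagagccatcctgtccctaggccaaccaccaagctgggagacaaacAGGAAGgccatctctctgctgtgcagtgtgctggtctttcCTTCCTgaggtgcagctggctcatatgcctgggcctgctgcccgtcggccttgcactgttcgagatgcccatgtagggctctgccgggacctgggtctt
The Emcn window held 2 matches to AGGAAG and 1 to AACAAT, and the Egfl7 window held 3 matches to AGGAAG. At least 1 window of 4 of the 6 genes held AGGAAG, and 2 of the 6 held AACAAT. Among 32851 promoters of the same length, 35.4% held AGGAAG and 10.7% held AACAAT. These shares are per promoter, whereas the 6 genes were counted over 8 windows, so the counts are not alike. The Egfl7 window at chr2:26586386-26586685 held 0 matches to either motif. These are matches of letters, and no binding was measured.

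The comparison of patDp/+ with wild type fat asks which transcripts differ between them. All 10 endothelial genes had a lower mean in patDp/+ fat, with log2 differences from -0.40 for Sox17 to -0.08 for Tek and a median of -0.22. None passed the test over all genes: adjusted p lay between 0.872 and 0.957 in limma. At an unadjusted p under 0.05 there were 3 members, Sox17, Sox18 and Emcn, all lower, where 2.92% of all genes were called lower by that rule. Over all genes 0 passed the adjusted threshold (0%), while 1075 had an unadjusted p under 0.05. The median difference over all genes was -0.01, and 52.7% of genes had a negative difference. In bulk tissue, fewer endothelial cells and less RNA of these genes per cell cannot be told apart.

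**Figure D1:**
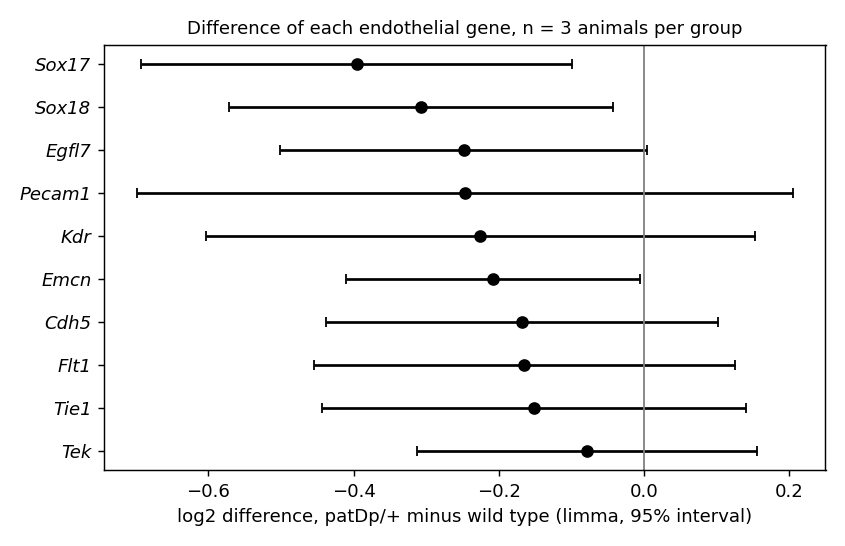
The log2 difference of each of the 10 genes, patDp/+ minus wild type, is drawn with its 95% interval from limma (3 animals per group). All points lie left of 0, and the intervals of Sox17, Sox18 and Emcn do not reach it.

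The 2 transcription factors showed the largest differences. Sox17, a SoxF factor needed for arterial identity, had log2 values of 0.17, 0.51 and 0.53 in patDp/+ replicates 1 to 3, against 0.88, 0.81 and 0.71 in wild type replicates 1 to 3. Every patDp/+ array lay below every wild type array, and the array of patDp/+ replicate 1 was the lowest. The difference was -0.40 ± 0.12 (SE), or 0.76 times the wild type level, with a 95% interval of -0.69 to -0.10 (unadjusted p = 0.017, adjusted p = 0.872). Its second kept probe, printed above, read -0.29, -0.16 and -0.23 in patDp/+ replicates 1 to 3 and 0.23, 0.17 and -0.04 in wild type replicates 1 to 3. These groups did not overlap either, and the difference of this probe was -0.35 ± 0.10 (SE). A further 2 probes named Sox17 were well above background on 0 of 6 arrays.

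Sox18, the SoxF factor whose mutation gives the ragged mouse its vascular and lymphatic defects, had values of 0.88, 1.13 and 1.16 in patDp/+ replicates 1 to 3. The wild type replicates had 1.46, 1.25 and 1.39. Again no patDp/+ array reached a wild type array, and patDp/+ replicate 1 was the lowest. The difference was -0.31 ± 0.11 (SE), or 0.808 times wild type (95% interval -0.57 to -0.04, unadjusted p = 0.0292, adjusted p = 0.875). Sox18 was read by a single probe.

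**Figure D2:**
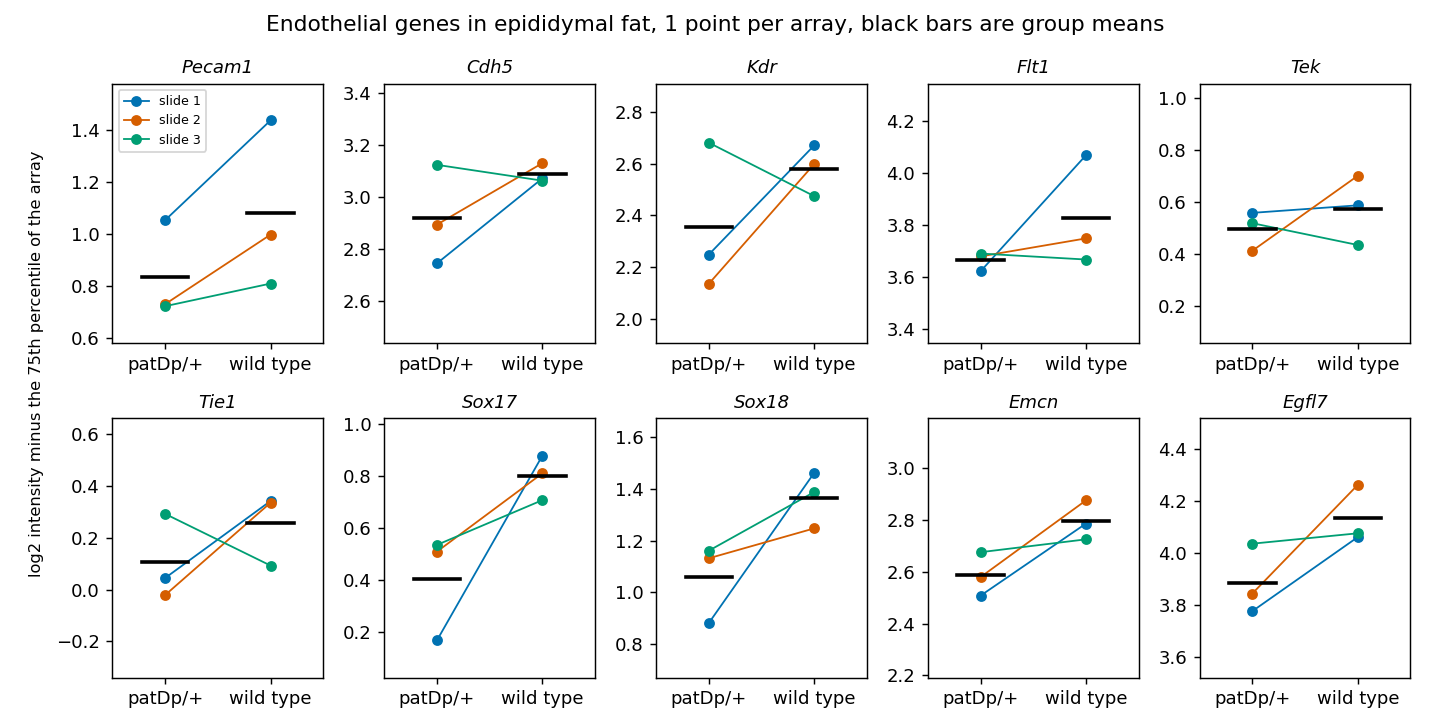
Each panel gives 1 gene, with the log2 intensity minus the 75th percentile of the array on the vertical axis, which spans 1 log2 unit in every panel. Points are arrays, patDp/+ left and wild type right, lines join the arrays of a slide, and black bars are group means. The groups are separate for Sox17, Sox18, Emcn and Egfl7, and the line of slide 3 runs the other way for Cdh5, Kdr, Flt1, Tek and Tie1.

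For the VEGF receptors the groups overlapped on the probe that stands for each gene. Kdr, the main signalling receptor for VEGF-A in endothelium, had values of 2.25, 2.14 and 2.68 in patDp/+ replicates 1 to 3, against 2.67, 2.60 and 2.47 in wild type replicates 1 to 3. The array of patDp/+ replicate 3 was the highest of all 6 and the other patDp/+ arrays were the lowest, so they spread more widely than the wild type arrays. The difference was -0.23 ± 0.16 (SE), with a 95% interval of -0.60 to 0.15 and an adjusted p = 0.911. Single arrays moved it both ways: it was -0.12 without patDp/+ replicate 2 (adjusted p = 1.00), -0.17 without patDp/+ replicate 1 (adjusted p = 1.00) and -0.39 without patDp/+ replicate 3 (adjusted p = 0.424). Over the 10 genes, leaving out 1 array gave 0 to 6 members at an unadjusted p under 0.05. The 0 came with wild type replicate 1 left out, where 831 of 19194 genes had such a p in either direction. The 6 came with patDp/+ replicate 3 left out, where 3.59% of all genes were lower by that rule.

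Flt1, a VEGF receptor that binds its ligand tightly and also exists as a soluble form, had 3.62, 3.68 and 3.69 in patDp/+ replicates 1 to 3 and 4.07, 3.75 and 3.67 in wild type replicates 1 to 3. The patDp/+ arrays were close together (SD 0.04), while the wild type SD was 0.21, with wild type replicate 1 above the rest. The difference of -0.16 ± 0.12 (SE) had an adjusted p = 0.926. A second probe to the same transcript gave -0.20 ± 0.10. Another kept probe, built on another cDNA clone, gave -0.50 ± 0.17, with values of -5.19, -4.92 and -5.40 in patDp/+ fat and -4.48, -4.59 and -4.95 in wild type fat. It was near the detection limit, well above background on 5 of 6 arrays, and what transcript form it reads was not analysed here. The remaining probe named Flt1 was well above background on 0 arrays.

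The angiopoietin receptors showed the smallest differences. Tek, also called Tie2, the receptor of Angpt1 and Angpt2, had 0.56, 0.41 and 0.52 in patDp/+ replicates 1 to 3, against 0.59, 0.70 and 0.43 in wild type replicates 1 to 3. The groups overlapped, and the difference was -0.08 ± 0.10 (SE), with a 95% interval of -0.31 to 0.16. Its second kept probe gave 0.07 ± 0.24, the only positive difference among the 16 kept probes of the 10 genes.

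Tie1, an orphan receptor that pairs with Tek, had 0.04, -0.02 and 0.29 in patDp/+ replicates 1 to 3 and 0.34, 0.34 and 0.09 in wild type replicates 1 to 3. As for Kdr, the array of patDp/+ replicate 3 stood with the higher wild type arrays, and the lowest values were those of patDp/+ replicates 1 and 2. The difference was -0.15 ± 0.12 (SE, 95% interval -0.44 to 0.14).

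Of the junction proteins, Cdh5 is VE-cadherin, the adhesion molecule of endothelial junctions. It had 2.74, 2.89 and 3.12 in patDp/+ replicates 1 to 3, against 3.07, 3.13 and 3.06 in wild type replicates 1 to 3. The wild type arrays were close together (SD 0.04) and patDp/+ replicate 3 lay among them, so the groups overlapped. The difference was -0.17 ± 0.11 (SE, adjusted p = 0.908). Its second probe had separate groups, with 0.40, 0.49 and 0.47 in patDp/+ fat and 0.62, 0.80 and 0.62 in wild type fat. That probe differed by -0.23 ± 0.08 (SE, unadjusted p = 0.0329, adjusted p = 0.955 over all kept probes).

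Pecam1, or CD31, is an adhesion molecule of endothelial junctions that platelets and many leukocytes also carry. It had 1.05, 0.73 and 0.72 in patDp/+ replicates 1 to 3 and 1.44, 1.00 and 0.81 in wild type replicates 1 to 3. The spread was wide in both groups, as replicate 1 was the highest of each, and the difference of -0.25 ± 0.19 (SE) had an adjusted p = 0.929. A second probe carries the name Pecam1 but is built on a cDNA clone that the scanner file describes as a product of another gene. On the genome it lies at chr11:106543058-106543117 (mm9, minus strand), inside the stretch spanned by the Pecam1 probe printed above. Which transcript it reads was not analysed here. This second probe was dim, with a difference of -0.26 ± 0.19.

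The remaining 2 members also had separate groups. Emcn encodes endomucin, a sialomucin of capillary and venous endothelium, and had 2.51, 2.58 and 2.68 in patDp/+ replicates 1 to 3 against 2.79, 2.88 and 2.73 in wild type replicates 1 to 3. The difference was -0.21 ± 0.08 (SE), or 0.866 times wild type, with a 95% interval of -0.41 to -0.01 (unadjusted p = 0.0455, adjusted p = 0.877). Egfl7, a secreted endothelial matrix protein whose gene also hosts a microRNA, had 3.78, 3.84 and 4.04 in patDp/+ replicates 1 to 3, against 4.06, 4.26 and 4.08 in wild type replicates 1 to 3. Here patDp/+ replicate 3 was just below the lowest wild type array. The difference was -0.25 ± 0.10 (SE), or 0.842 times wild type (unadjusted p = 0.0532, adjusted p = 0.877).

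Counted over the members, by the probe that stands for each, 4 of 10 genes had separate groups. All 4 were lower, against 5.89% of all genes that were lower without overlap. Counted over their probes, 15 of 16 kept probes were lower, where 52.8% of all kept probes were, and 6 had an unadjusted p under 0.05, where 2.75% of all kept probes were lower by that rule. These probes are not independent, because several read the same transcript: 5 genes had more than 1 kept probe. The 16 include the dim Pecam1 probe whose clone the scanner file describes as a product of another gene. They also include the Flt1 probe near the detection limit, which is 1 of the 6.

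The slides did not show the same difference. Within slide 1 all 10 genes were lower in the patDp/+ animal (47.2% of all genes were), with a median of -0.36. Within slide 2 all 10 were lower as well (53.2% of all genes), with a median of -0.29. Within slide 3 only 5 of 10 were lower (53.7% of all genes), and the median was -0.01.

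Pecam1, Sox17, Sox18, Emcn and Egfl7 were lower within every slide, which was so for 14.6% of all genes. Sox17 differed by -0.71, -0.30 and -0.17 within slides 1 to 3, and Sox18 by -0.58, -0.12 and -0.23. Egfl7 differed by -0.29, -0.42 and -0.04, and Emcn by -0.28, -0.30 and -0.05, so that for this pair slide 3 showed almost no difference. Kdr, with -0.42, -0.46 and 0.21, and Tie1, with -0.30, -0.36 and 0.20, turned on slide 3. Slides were not compared by a test, since each holds 1 animal per group. With the slide as a block, the members at an unadjusted p under 0.05 came down to 1, Sox17 (unadjusted p = 0.0429, 2.76% of all genes lower by that rule), while Sox18 had 0.0672 and Emcn 0.0934.

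**Figure D3:**
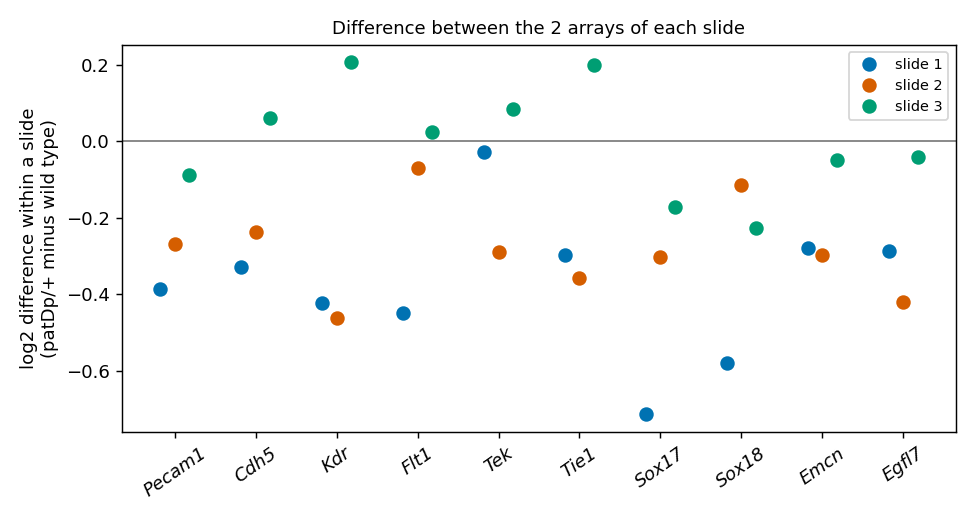
For each gene, 3 points give the log2 difference between the patDp/+ and the wild type array of slides 1, 2 and 3. Points of slides 1 and 2 lie below 0 for all 10 genes, and those of slide 3 lie on both sides of it.

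Across arrays the members varied together. Over the 6 arrays all 45 pairs of members had a positive Pearson r, from 0.004 for Pecam1 and Cdh5 to 0.97 for Emcn and Egfl7, with a median of 0.66. Kdr and Tie1 had 0.94, as did Sox17 and Sox18. These are descriptions only: each value rests on the same 6 arrays, their scaling and the difference between the groups. After centring each gene, the mean over the members was -0.18, -0.15 and 0.003 in patDp/+ replicates 1 to 3, against 0.20, 0.13 and 0.003 in wild type replicates 1 to 3.

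Among 14474 named genes outside the list, those most like the mean standardised profile of the members were Ccl25, Rgs3, Fmo1, Marchf7 and Pbld1, with a Pearson r of 0.99 to 1.00 over the 6 arrays. Of the 200 genes most like it, 4 were on the lists of other endothelial genes: Aplnr, Erg, Calcrl and Ets2, chosen for mention after their values were seen. Whether so high an r is unusual among this many genes on 6 arrays was not tested.

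Other genes of the same pathways were read from lists. Their counts stand beside those over all genes, of which 52.7% had a negative difference, 2.92% were lower at an unadjusted p under 0.05 and 5.89% were lower with separate groups. Nothing particular to a list is read from 1 called gene. Of 8 ligands of these receptors, all measured, 6 were lower and 2 higher, with a median log2 difference of -0.10. Angpt1, the agonist ligand of Tek, was 1 of 8 at an unadjusted p under 0.05, against 2.92% of all genes lower by that rule (-0.42 ± 0.17, SE, adjusted p = 0.877). Its values were -2.61, -2.91 and -2.70 in patDp/+ fat against -1.99, -2.55 and -2.43 in wild type fat, with no overlap. Vegfc, a ligand of lymphatic growth, had -0.21 ± 0.13, Angpt4 -0.64 ± 0.57 and Pgf, a ligand of Flt1, -0.11 ± 0.10.

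Of 18 co-receptors and signalling partners, 11 were lower and 7 higher, with a median of -0.04 and 0 at an unadjusted p under 0.05 in limma. The smallest p belonged to the adaptor gene Grb2 (0.20 ± 0.10, SE), Dok2, an adaptor of Tek (0.29 ± 0.20), the phosphatase gene Ptprj (0.18 ± 0.13) and Rasip1, a regulator of vessel lumens (-0.15 ± 0.11).

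Among 24 further junction and surface genes of endothelium, 21 were lower (52.7% of all genes were), with a median of -0.08. At an unadjusted p under 0.05 there was 1 of 24, near the 2.92% of all genes lower by that rule. It was Aplnr, the apelin receptor, with -1.28, -1.29 and -1.11 in patDp/+ fat against -0.47, -0.41 and -0.91 in wild type fat. The groups were separate, and the difference of -0.63 ± 0.15 (SE, unadjusted p = 0.00525, adjusted p = 0.872) was 0.646 times wild type. The adhesion molecule gene Icam2 had -0.21 ± 0.10, the sialomucin gene Podxl -0.16 ± 0.09 and Calcrl, a receptor for adrenomedullin, -0.17 ± 0.10.

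Among 21 measured transcription factors of 22 on the list, 18 were lower (52.7% of all genes were), with a median of -0.10. At an unadjusted p under 0.05 there was 1 of 21, near the 2.92% of all genes lower by that rule. This gene, Gata2, a factor of endothelial and blood cells, had -0.92, -0.87 and -0.72 in patDp/+ fat against -0.46, -0.61 and -0.51 in wild type fat (-0.31 ± 0.09, SE, unadjusted p = 0.0116, adjusted p = 0.872). Nr2f2, a factor of veins, had -0.24 ± 0.11, the SoxF gene Sox7 -0.55 ± 0.26 and the ETS gene Erg -0.26 ± 0.12. Sox7 differed by -0.96, 0.16 and -0.84 within slides 1 to 3, a wider spread than that of Sox17 or Sox18.

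In the list of Notch and arteriovenous genes, 12 of 14 measured genes were lower (52.7% of all genes were), with a median of -0.15. Efnb2, the ephrin that marks arteries, had -0.41, -0.22 and -0.30 in patDp/+ fat against 0.10, 0.01 and -0.13 in wild type fat, with separate groups, as 5.89% of all genes had in that direction (-0.31 ± 0.10, SE, unadjusted p = 0.0179, adjusted p = 0.872). It was 1 of 14 at an unadjusted p under 0.05, against 2.92% of all genes lower by that rule. The guidance receptor gene Unc5b (-0.42 ± 0.19), Heyl (-0.25 ± 0.13) and the ligand gene Dll1 (-0.20 ± 0.11) came next. No gene of these 5 lists passed the adjusted threshold.

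Markers of other cell types were read on the same arrays. Their counts of higher and lower genes stand beside all genes, of which 52.7% had a negative difference. Of 10 macrophage markers 9 were higher in patDp/+ fat, with a median of 0.23, and 0 had an unadjusted p under 0.05 in limma. Adgre1 had 0.17 ± 0.10 and Cd68 0.37 ± 0.24 (SE). The log2 of their summed level was 8.42, 8.24 and 8.06 in patDp/+ replicates 1 to 3, against 8.12, 7.98 and 8.09 in wild type replicates 1 to 3. Within slides 1 to 3 the medians of the macrophage list were 0.35, 0.34 and 0.03. The slides with lower endothelial genes were those with higher macrophage markers in the patDp/+ animal. This was not particular to macrophages: the mesothelial list had medians of 0.32, 0.31 and -0.17 within slides 1 to 3. The part of cell content in the endothelial values was not tested.

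Adipocyte markers had a median of -0.07, with 5 of 8 lower, and a log2 summed level of 10.72 to 10.87 in patDp/+ fat against 10.75 to 10.96 in wild type fat. Adipoq had -0.08 ± 0.07 and Plin1 -0.11 ± 0.08 (SE). Within slides 1 to 3 the medians of the adipocyte list were -0.17, -0.05 and 0.07, the same order as that of the endothelial genes. For the mural cells that wrap vessels, 8 of 10 markers were lower, with a median of -0.13 and a log2 summed level of 5.94 to 6.02 in patDp/+ fat against 5.76 to 6.22 in wild type fat. Their defining genes Pdgfrb (-0.01 ± 0.08) and Rgs5 (-0.17 ± 0.09) did not pass, and the mural median within slides 1 to 3 was -0.11, -0.02 and -0.31, a different order from that of the endothelial genes.

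Lymphatic markers had a median of -0.14 over 6 genes (4 lower), and within slides 1 to 3 their medians were 0.08, 0.24 and -0.67. Among them Prox1 had -0.43 ± 0.37 and Lyve1 0.43 ± 0.27. Prox1 was dim, with -5.00, -5.32 and -5.72 in patDp/+ replicates 1 to 3. Its wild type replicates 1 to 3 had -5.09, -5.51 and -4.16, so only wild type replicate 3 lay above all patDp/+ arrays. Progenitor markers (5 of 8 higher) had a median of 0.02, mesothelial markers (6 of 6 higher) of 0.09, platelet and red cell markers (4 of 6 measured higher) of 0.15 and lymphocyte markers (4 of 8 measured higher) of -0.02. At an unadjusted p under 0.05 in limma, 2.92% of all genes were lower, and 1075 of 19194 were called in either direction. By that rule 1 of 8 progenitor markers was lower, Pdgfrl (-0.51 ± 0.07, SE), while Pdgfra had 0.03 ± 0.12. Of 8 measured lymphocyte markers, the B cell gene Cd79b (-0.74 ± 0.28) was lower by that rule. The T cell genes Cd3d (0.45 ± 0.13) and Cd8a (1.35 ± 0.13) were higher, while the T cell gene Cd3e had 0.08 ± 0.09. Of the mesothelial markers, Msln had 0.31 ± 0.16 and Upk3b 0.16 ± 0.15. No gain or loss of a cell type is read from these genes. Cd79b, Cd8a and Hba-a1 were named after their values were seen. In the platelet and red cell list, Itga2b had 0.33 ± 0.22 and Gp9 -0.24 ± 0.17 (SE). The log2 summed level of that list was 7.89 to 8.63 in patDp/+ fat and 7.71 to 8.26 in wild type fat. That sum follows its brightest gene, the red cell gene Hba-a1, with 7.58, 7.75 and 8.46 in patDp/+ replicates 1 to 3. Wild type replicates 1 to 3 had 7.81, 8.05 and 7.43, so the sum is no reading of platelets. The part of platelets and leukocytes in the values of Pecam1, which they share, was not tested.

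**Figure D4:**
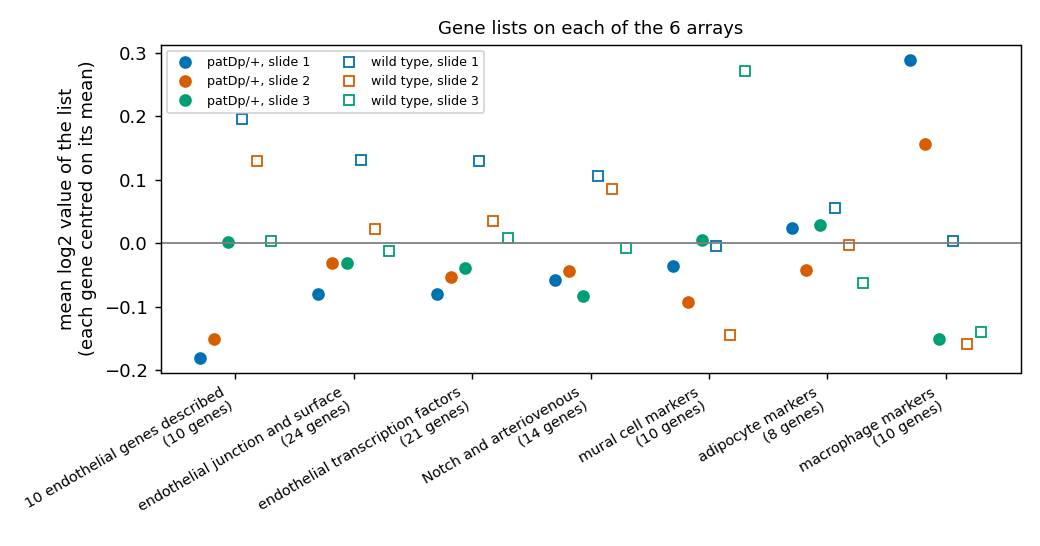
Each point is the mean over a gene list on 1 array, in log2 units after each gene was centred on its own mean. Filled circles are patDp/+ arrays, open squares wild type arrays, and colours mark slides. The 10 endothelial genes run from -0.18 to 0.003 on patDp/+ arrays and from 0.003 to 0.20 on wild type arrays, and the macrophage list is highest on the arrays of patDp/+ replicates 1 and 2.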

How the data were processed

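The deposited intensity values were made with Feature Extraction 9.5.1.1 per the file headers, with local background and spatial trend removed and no scaling between arrays. A second table deposited by the authors holds log2 values with nearly equal column medians (7.58), and how its background was treated is not given. Its columns were matched to arrays by name, and the closest array of each was its own (r from 0.983 to 0.987). That table served as an alternative.

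For the main values, the 75th percentile of an array was subtracted from its log2 processed intensities. Outlier spots were left out, which touched no member, and replicate spots were averaged. Probes well above background on at least 3 of 6 arrays were kept (27975 of 41174), and a gene was its brightest kept probe. Names came from the scanner files, updated by RefSeq accession (27050 probes matched, GRCm38.p6). Probe coordinates are mm9, as the files give them, and their place within gene models was not analysed here.

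Groups came from sample titles, since the source name calls every sample wild type. The comparison used lmFit and eBayes of limma 3.58.1 under R 4.3.3, two-sided and without covariates, over 19194 features. P-values were adjusted by the Benjamini-Hochberg method, and 0.05 was the threshold. The fit was tested on simulated data. The number of arrays limits the precision, and each p-value sets a difference between groups against the spread between these animals.

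Members and lists were chosen with earlier results of these data known. The text names all members, up to 4 genes with the smallest p of each pathway list, the first 2 measured genes of marker lists, and the 5 genes most like the members.

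Same-numbered animals shared a slide and a scan, so the replicate number and the slide give the same block. Deviations from the group means correlated at 0.11, -0.09 and -0.04 for the pairs. Alternatives were normexp with an offset of 50, quantile and cyclic loess normalization, the deposited table, other filters and probe rules, the slide or replicate block, array weights, another variance model and leaving out each array. Leaving out a whole slide was added after seeing the data.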

Additional observations from a re-analysis of the deposited data

How the results depend on the processing

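No gene passed the adjusted threshold under any of the 21 alternatives (limma, 0 genes in each). All 10 members kept a lower mean under the 20 alternatives with a value per member, except Tek, which had 0.028 without both arrays of slide 2. Their median log2 difference lay between -0.33 (without both arrays of slide 3, the only alternative that moved it by more than the spread between animals) and -0.15 (without both arrays of slide 1). Leaving out 1 array gave medians of -0.26 to -0.17. Of members at an unadjusted p under 0.05 there were 3 in the main setting (1075 of 19194 genes in either direction) and 6 with normexp (831 of 19194). There were 6 of 16 when every kept probe was tested on its own, where 2.75% of all kept probes were lower by that rule. With the slide or replicate block there was 1 (2.76% of all genes lower by that rule). There were 0 without both arrays of slide 1 (697 genes in either direction) and 1 without both arrays of slide 2 (918 genes). Leaving out 1 array gave 0 to 6 such members, with 0 without wild type replicate 1 (831 genes in either direction). There was 1 without patDp/+ replicate 1 (764 genes) or wild type replicate 3 (1067 genes). There were 6 without patDp/+ replicate 3 (3.59% of all genes lower by that rule). Over all genes, the count at an unadjusted p under 0.05 was 1075, but 1742 with array weights, 697 without both arrays of slide 1, 1623 without both arrays of slide 3, and 755 to 1788 without 1 array, the highest without patDp/+ replicate 3. Sox17 had an unadjusted p under 0.05 in 17 of 20 alternatives and Sox18 in 13. These alternatives refit the same 6 arrays or some of them, and the slide and replicate blocks are the same model. The counts are therefore not independent support. The causes of these changes were not tested. With 3 animals per group, a permutation test of a single value cannot give a two-sided p below 0.1.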
